A study of Mus musculus with 4 samples.

Results

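The block of mouse chromosome 7 from 6000000 to 7500000 (mm10) holds the zinc finger genes Zfp787 and Zfp444 near its lower edge and the genes Vmn2r29 and Clcn4 towards its upper edge. It was analysed through chromatin loops, which are pairs of genome segments called by the authors as contacting each other more than their surroundings. A loop belonged to the block when either of its 2 anchors, the joined segments, overlapped it. There were 66 such loops among the 59353 loops of 4 lists. The knockout list held 22, the progesterone list 16, vehicle replicate 2 held 17 and vehicle replicate 3 held 11. The block was chosen by its calls in these same lists: a loop between Zfp787-Zfp444 and Clcn4-Vmn2r29 was present with vehicle and missing in the knockout. Differences between the lists are therefore given as a description, with no test.

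The loops come from Hi-C, in which DNA segments close together in the nucleus are ligated and sequenced, of whole uterus. All animals were females with the C57BL/6J strain label, were over 10 weeks old, had been ovariectomised, and were rested for 10 to 14 days before a single injection 1 h before the uterus was frozen. The groups were 1 library of uterus without estrogen receptor alpha (ERα; genotype label Ex3aERKO) after 100 ul of saline into the abdominal cavity, 1 wild-type library (replicate 2) from uteri exposed to progesterone (1 mg, injected under the skin with 100 ul of sesame oil as carrier), and 2 libraries of wild-type uterus after the same saline injection (replicates 2 and 3). Progesterone and saline thus also differed in carrier and route. How many animals stand behind a library is not stated by the labels, and loop positions contain no marker of tissue and no reading of the Esr1 deletion. In whole tissue, a loop in fewer cells and a weaker loop in every cell cannot be told apart, and a loop missing from a list is a missing call.

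Mammalian loops form largely where the cohesin ring, extruding DNA, is held at sites bound by the zinc finger protein CTCF. Zfp444 and Zfp787 encode C2H2 zinc finger proteins, the largest class of mammalian transcription factors, and stand at one end of a cluster of zinc finger genes. Between the 2 ends lies the imprinted Peg3 domain, where Peg3, a zinc finger gene, and Usp29, a ubiquitin protease gene, are expressed from the paternal copy and start next to each other. Clcn4 encodes an endosomal exchanger of chloride and protons, and Vmn2r29 belongs to the V2R pheromone receptors of the vomeronasal organ.

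Promoter windows of all 4 genes lie in 2 anchors of 25 kb and are shown because these anchors carry the difference between lists. They reach from 250 bases before to 50 after the RefSeq gene start (GRCm38.p6, the assembly behind mm10), written 5′ to 3′ on the strand of the gene. Capitals mark the longest run shared by the Clcn4 and Vmn2r29 windows.
Clcn4 (chr7:7299508-7299807, minus strand): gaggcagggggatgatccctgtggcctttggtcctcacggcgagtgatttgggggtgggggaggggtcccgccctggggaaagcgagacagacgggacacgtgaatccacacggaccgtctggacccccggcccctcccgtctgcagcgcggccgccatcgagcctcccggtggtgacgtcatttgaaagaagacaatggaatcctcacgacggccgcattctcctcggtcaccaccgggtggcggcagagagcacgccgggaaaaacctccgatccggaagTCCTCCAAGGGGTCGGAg
Vmn2r29 (chr7:7278240-7278539, minus strand): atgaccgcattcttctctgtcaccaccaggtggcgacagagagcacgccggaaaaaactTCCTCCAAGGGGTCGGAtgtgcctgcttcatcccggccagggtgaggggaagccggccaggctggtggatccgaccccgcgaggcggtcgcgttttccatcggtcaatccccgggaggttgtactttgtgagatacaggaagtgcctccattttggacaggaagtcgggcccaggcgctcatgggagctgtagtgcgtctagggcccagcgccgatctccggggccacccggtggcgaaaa
Zfp787 (chr7:6155916-6156215, minus strand): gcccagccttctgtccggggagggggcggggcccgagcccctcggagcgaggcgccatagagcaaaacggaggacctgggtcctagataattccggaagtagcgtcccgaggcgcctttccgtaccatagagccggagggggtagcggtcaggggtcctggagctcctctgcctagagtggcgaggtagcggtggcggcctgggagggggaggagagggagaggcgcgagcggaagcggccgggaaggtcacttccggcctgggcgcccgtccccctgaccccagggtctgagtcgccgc
Zfp444 (chr7:6172263-6172562, plus strand): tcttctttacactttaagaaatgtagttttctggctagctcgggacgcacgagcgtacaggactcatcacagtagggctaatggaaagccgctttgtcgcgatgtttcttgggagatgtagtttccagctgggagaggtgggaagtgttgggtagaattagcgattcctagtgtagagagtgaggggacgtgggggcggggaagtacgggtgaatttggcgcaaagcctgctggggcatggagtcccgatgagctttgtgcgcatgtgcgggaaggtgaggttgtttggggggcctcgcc

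The Clcn4 and Vmn2r29 windows, which lie in the same 25 kb anchor, had a common stretch. Their best local alignment covered 85 columns with 67 identical bases (78.8%), and their longest identical run was 17 bases. Of 32851 promoter windows in the RefSeq table, 2 held this run on either strand, those of Clcn4 and Vmn2r29. The CTCF core, searched on both strands as CCA, AG and GGC with 2 bases of any kind between them, was found once in the Vmn2r29 window, on the gene's own strand at positions 23 to 34 (CCACCAGGTGGC, counted from 1 at the 5′ end). The windows printed for Clcn4, Zfp787 and Zfp444 did not hold these letters, which were in 1 of the 38 promoter windows of the block, and in 2.43% of all windows. In the stretch aligned with Vmn2r29, Clcn4 reads GG where the match reads AG. The search allowed no such difference, so near matches were not counted. The estrogen response element, GGTCA and TGACC with 3 bases of any kind between them, was in 0 of the 38 windows of the block and in 0.0700% of all windows. CpG pairs numbered 27 in the Clcn4 window, 23 in Vmn2r29, 27 in Zfp787 and 16 in Zfp444, against a median of 6 over the block and 7 over all windows. A second Clcn4 start, at chr7:7298787-7299086 and not printed, lay in the same 25 kb anchor and had 14 CpG pairs and 0 CTCF core matches. A second Vmn2r29 start, at chr7:7247279-7247578, had 0 CpG pairs and lay in no anchor. These are matches of letters, and binding was not measured.

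The anchor over Clcn4 and Vmn2r29 (25 kb bin, 7275001 to 7300000) had loops in all 3 wild-type lists and none in the knockout list. It was touched by 0 loops in the knockout, 4 after progesterone, 5 in vehicle replicate 2 and 3 in vehicle replicate 3. The Zfp787-Zfp444 anchor (6150001 to 6175000) was touched by 10 loops in the knockout, 4 after progesterone, 4 in vehicle replicate 2 and 4 in vehicle replicate 3. The knockout was therefore below every wild-type library at the upper anchor and above every one at the lower. The loop that joins both anchors, 1125 kb long, was called at the same positions in the 3 wild-type lists. As shares of the block's loops, the lower anchor took 45.5% in the knockout, 25% after progesterone, 23.5% in vehicle replicate 2 and 36.4% in vehicle replicate 3.

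**Figure D1:**
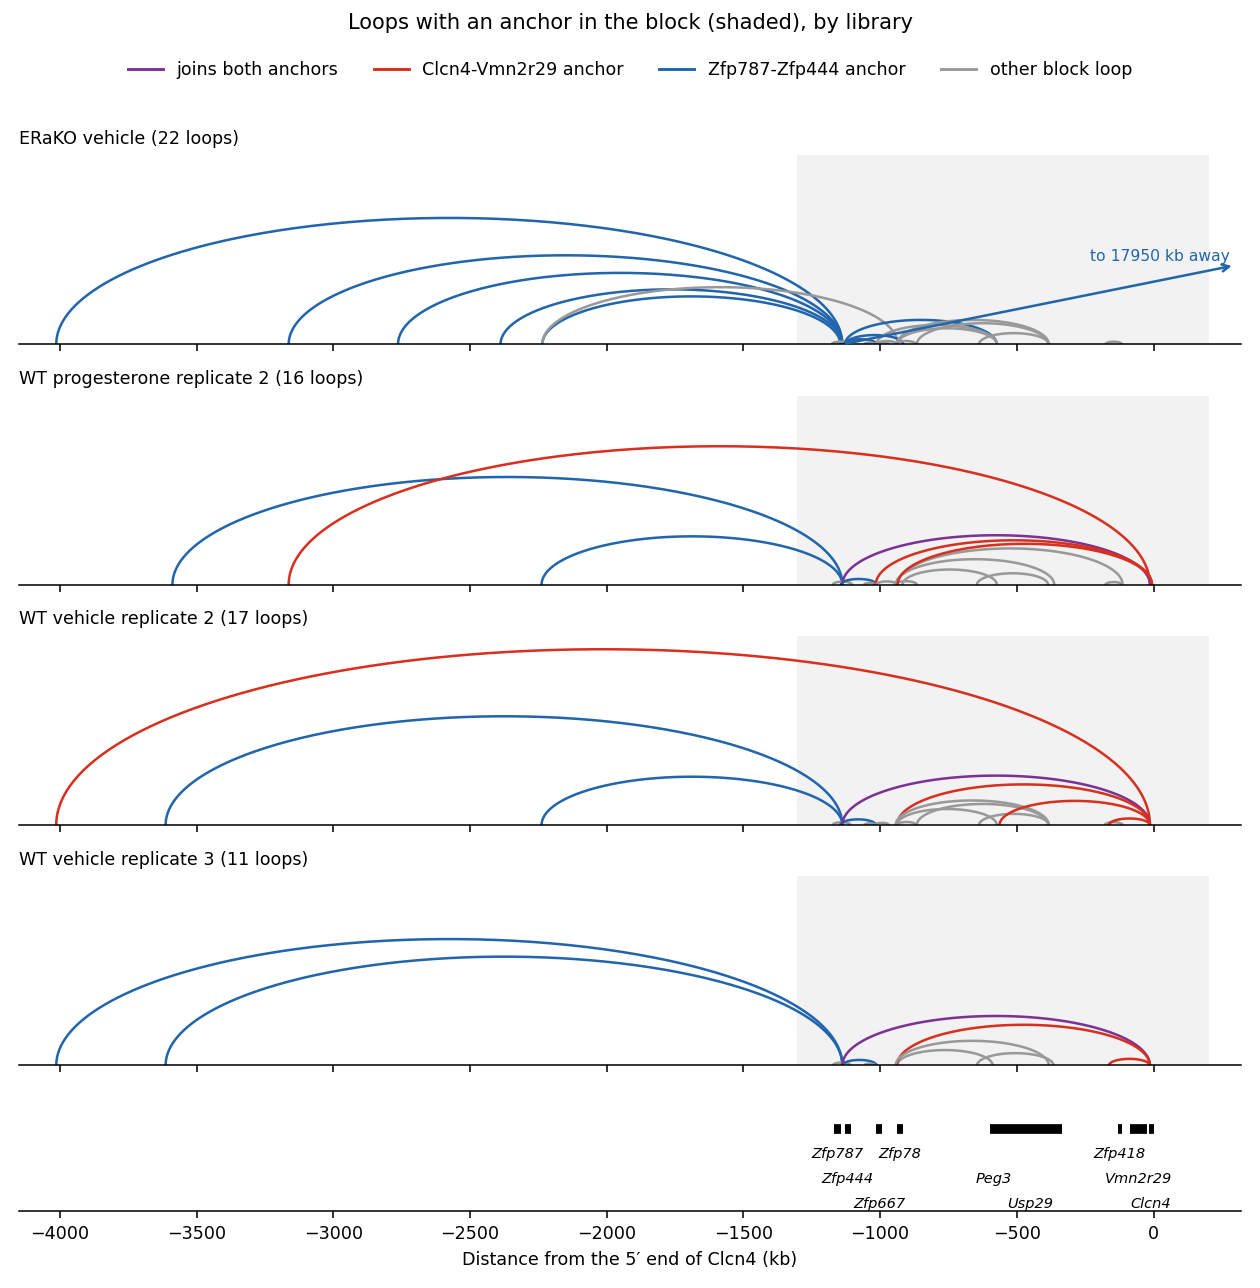
Loops with an anchor in the block, 1 panel per library, drawn as arcs between anchor midpoints against the distance from the 5′ end of Clcn4 in kb; shading marks the block and black bars mark genes. Red and purple arcs, which end at the Clcn4-Vmn2r29 anchor, number 0 in the knockout, 4 after progesterone, 5 in vehicle replicate 2 and 3 in vehicle replicate 3; the arrow stands for 1 loop of 17950 kb that leaves the plot.

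Among the 3 wild-type libraries, the order of the Clcn4-Vmn2r29 counts was that of the list lengths, and the knockout list was the longest. The part of depth in the counts was not tested. The whole knockout list had 21829 loops, the progesterone list 11752, vehicle replicate 2 had 16387 and vehicle replicate 3 had 9385. Loops with 25 kb anchors, the size of 10 of the 12 Clcn4-Vmn2r29 loops, numbered 2194 in the knockout, 2203 after progesterone, 2173 in vehicle replicate 2 and 2179 in vehicle replicate 3. In the block they numbered 5 in the knockout, 5 after progesterone, 7 in vehicle replicate 2 and 7 in vehicle replicate 3. All 5 knockout loops of this size ended at Zfp787-Zfp444 and 0 at Clcn4-Vmn2r29; the Clcn4-Vmn2r29 anchor took 2 of 5 after progesterone, 5 of 7 in vehicle replicate 2 and 3 of 7 in vehicle replicate 3. Over the whole block the knockout held 1.29 times the loops of vehicle replicate 2 and 2 times those of vehicle replicate 3, against 1.33 and 2.33 times over the full lists.

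At Clcn4 the count depended on how a loop was assigned to the gene. Clcn4 (7282309 to 7300916, minus strand) had its start or end in an anchor of 0 loops in the knockout, 2 after progesterone, 5 in vehicle replicate 2 and 3 in vehicle replicate 3. Counted by any part of the gene, or by the promoter window, it had 0, 4, 5 and 3 in that order of libraries. The 2 additional progesterone loops have 10 kb anchors from 7290001 to 7300000, which hold the promoter window of Clcn4 but neither listed end of the gene. Vmn2r29 (7212996 to 7278289, minus strand) had 0, 2, 5 and 3 loops by either measure and shares the 25 kb anchor, so the counts of the 2 genes are not independent. No setting tried gave Clcn4 a loop in the knockout. With 5 kb or 10 kb anchors alone, its ends were in 0 loops in every list, wild-type lists included. Those 2 settings take a part of a knockout count that was already 0, so they could not show a difference. The other settings could also give only 0. The last knockout anchor of the block ended at 7190000 and the next started at 12420001, both too far from Clcn4. The block was chosen by a missing knockout call at this anchor, so the repeated 0 is no further support.

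In the wild-type libraries the Clcn4-Vmn2r29 anchor reached back to zinc finger genes and to Peg3. A 925 kb loop to Zfp78, a zinc finger gene (6350001 to 6375000), was in both vehicle lists, and its progesterone match, of 930 kb, joined 10 kb anchors at 6360001 and 7290001. A 150 kb loop to Zfp773 (7125001 to 7150000), another zinc finger gene, was in both vehicle lists but had no progesterone match. Vehicle replicate 2 alone had a 550 kb loop to the facing starts of Peg3 and Usp29 (6725001 to 6750000) and a 4000 kb loop to Myadm, a myeloid differentiation marker gene (3275001 to 3300000). Progesterone alone had a 1010 kb loop to Epp13 and Zfp667 (6280001 to 6290000) and a 3150 kb loop to Ttyh1, Leng8 and Leng9 (4125001 to 4150000). So 2 of these partners were called with Clcn4-Vmn2r29 in both vehicle lists beside Zfp787-Zfp444, and 4 in 1 wild-type list each.

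**Figure D2:**
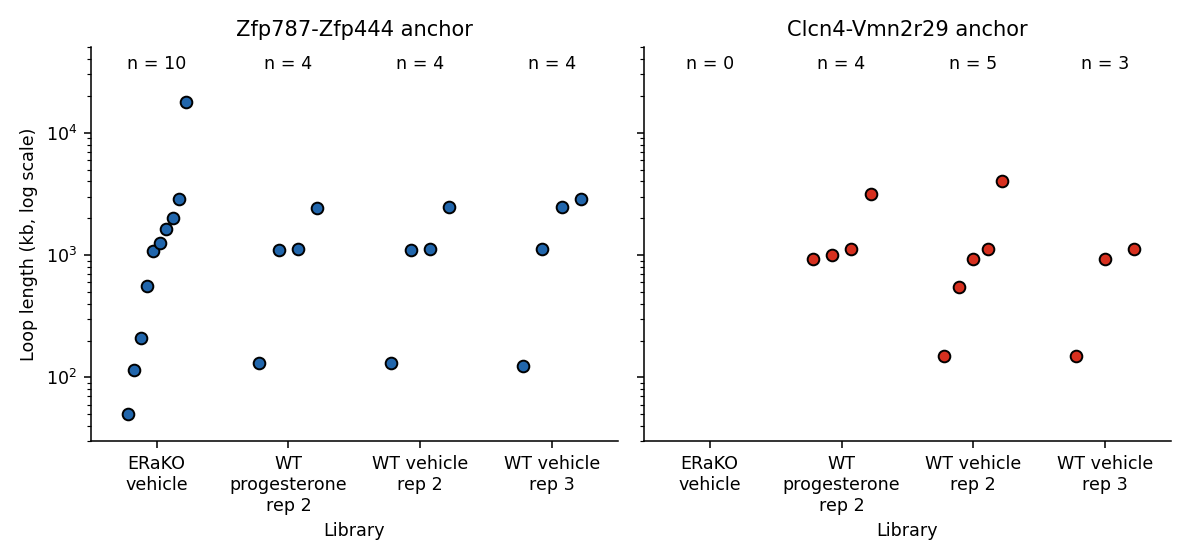
Length in kb (log scale) of each loop at the Zfp787-Zfp444 anchor (left) and at the Clcn4-Vmn2r29 anchor (right), 1 point per loop, by library. The left panel has 10 knockout points from 50 to 17950 kb and 4 in each wild-type library, while the right panel has 0 knockout points and 4, 5 and 3 points in the progesterone list and vehicle replicates 2 and 3.

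At the Zfp787-Zfp444 end the knockout list held additional long loops away from the block. Loops from this anchor to positions outside the block numbered 6 in the knockout, 2 after progesterone, 2 in vehicle replicate 2 and 2 in vehicle replicate 3. The knockout partners were Myadm (2875 kb), Ttyh1, Leng8 and Leng9 (2025 kb), Dnaaf3, Syt5 and Ptprh (1625 kb), Zfp628 and Nat14 (1250 kb), Ccdc106 and U2af2, a splicing factor gene (1090 kb), and, on the far side, Zfp180 and Zfp112 (17950 kb, 24100001 to 24125000). Dnaaf3, Syt5, Ptprh, Zfp628, Nat14, Zfp180 and Zfp112 were named after their values were seen. Of the 21829 knockout loops, 27 were at least as long as the last. The Myadm loop was also called at the same positions in vehicle replicate 3, and the U2af2 loop was matched after progesterone and in vehicle replicate 2. The remaining 4 were in no wild-type list, where the share in no wild-type list was 41.2% over all knockout loops of 1000 kb or longer and 37.0% over the whole knockout list.

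The same far segments were joined to different ends of the block in different libraries. Myadm was paired with Zfp787-Zfp444 in the knockout and in vehicle replicate 3, and with Clcn4-Vmn2r29 in vehicle replicate 2. Ttyh1, Leng8 and Leng9 were paired with Zfp787-Zfp444 in the knockout and with Clcn4-Vmn2r29 after progesterone. A loop of 2475 kb from Zfp787-Zfp444 to Tmc4, Mboat7 and Tsen34, the last 2 encoding a phospholipid acyltransferase and a tRNA splicing endonuclease subunit, was in both vehicle lists, with a progesterone match of 2450 kb at the adjoining segment of Tsen34, Rps9 and Pirb, and had no knockout match. The nearest knockout loop was 400 kb away, at Myadm.

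Zfp444 and Zfp787 were the genes of the block with the most loops over the 4 lists. Zfp444 (6172468 to 6193104, plus strand) had its start or end in 10 loops in the knockout, 3 after progesterone, 4 in vehicle replicate 2 and 5 in vehicle replicate 3. Zfp787 (6131489 to 6159380, minus strand) had 6, 4, 4 and 4 in that order. A short loop from 6125001 to 6190001 (65 kb), which encloses most of both genes, was in the knockout and both vehicle lists, and a 70 kb progesterone loop matched it. Of the shorter knockout loops of Zfp444, one of 210 kb to Zfp78 and Zfp28, one of 555 kb to Peg3 and one of 50 kb across Zfp787 were in no wild-type list, as were 37.0% of all knockout loops. With 5 kb anchors alone Zfp444 had 3, 0, 1 and 1 loops, and with 10 kb anchors it had 2, 0, 0 and 0.

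**Figure D3:**
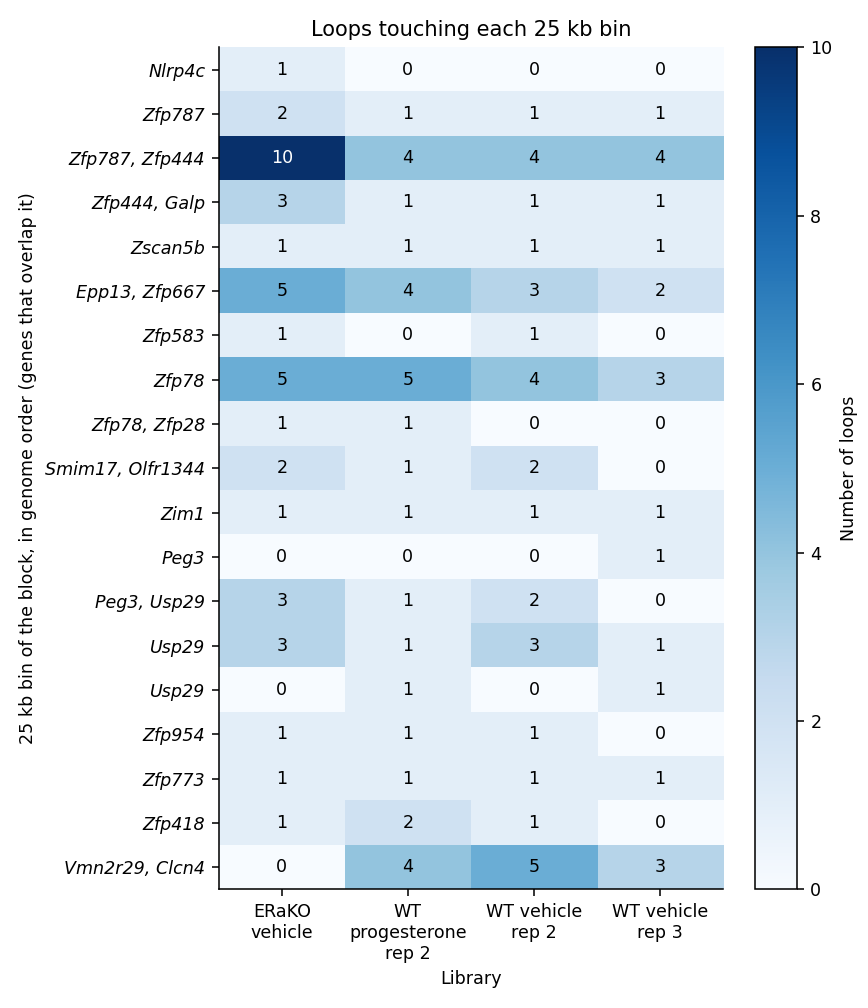
Number of loops that touch each 25 kb bin of the block with at least 1 loop, in genome order from top to bottom, with libraries in columns and overlapping genes as row names. The bin of Zfp787 and Zfp444 reads 10, 4, 4 and 4, the last bin, of Vmn2r29 and Clcn4, reads 0, 4, 5 and 3, and the bin of Zfp78 reads 5, 5, 4 and 3.

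Between the 2 ends, loops among zinc finger genes were called in every library. Of 33 protein-coding genes lying wholly in the block, 11 had an end in an anchor in the knockout, 13 after progesterone, 14 in vehicle replicate 2 and 9 in vehicle replicate 3, and 17 did in at least 1 list. Those are 33.3%, 39.4%, 42.4% and 27.3%, against 43.6%, 27.8%, 34.3% and 23.9% of all 21631 protein-coding genes. Of 13 protein-coding zinc finger genes, 8, 7, 8 and 6 were at anchors in the order knockout, progesterone, vehicle replicates 2 and 3, and Zfp787, Zfp444, Zfp667 and Zfp78 were at anchors in all 4. Zfp78 had 5, 4, 3 and 2 loops, and Zfp667 had 4, 3, 1 and 1. Zfp954 had 1, 1, 1 and 0 loops, Zfp418 had 1, 2, 0 and 0, Zfp773 had 0, 0, 1 and 1, Zfp583 had 1, 0, 1 and 0, and Zfp28 had 1, 1, 0 and 0. Beside them, Epp13 had 1, 2, 3 and 2 loops, Smim17 had 2, 1, 2 and 0, and Galp, the galanin-like peptide gene, had 0, 1, 0 and 0. Of 9 genes at anchors in both vehicle lists, Clcn4, Vmn2r29, Peg3 and Zfp773 were at none in the knockout (4 of 9), against 9.76% of such genes over the genome. Clcn4 and Vmn2r29 share 1 anchor, and the block was chosen by a loop of that anchor. By other rules Peg3 and Zfp773 did have knockout loops. Anchors over any part of Peg3 were in 3, and Zfp773 had an end within 10 kb of an anchor of 1.

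Receptor genes of smell and pheromone sensing were mostly away from anchors, as were most protein-coding genes in every list. Of 8 olfactory receptor genes, Olfr1344 alone had an end in an anchor, with 1, 1, 1 and 0 loops in the same order. Of 5 vomeronasal receptor genes, Vmn2r29 alone did. These are 12.5%, 12.5%, 12.5% and 0% of the olfactory and 0%, 20%, 20% and 20% of the vomeronasal genes. Over all protein-coding genes the shares were 43.6%, 27.8%, 34.3% and 23.9%. So few genes do not set these families apart. Above the Clcn4-Vmn2r29 anchor no list had a further anchor for 5120 to 5175 kb, and the next one started at 12420001 or 12475001. In the knockout the last anchor of the block ended at 7190000, in the zinc finger gene cluster of Zfp954 and Zfp418, and the stretch without anchors was 5230 kb. Of 49 protein-coding genes that lie between 7300000 and 12420001, 42 are vomeronasal receptor genes. How well reads can be placed in this stretch was not tested, so a missing anchor there is no sign of missing contacts. Clcn4-Vmn2r29 is therefore the last anchor before this stretch in the wild-type lists.

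The imprinted Peg3 domain kept contacts with Zfp78 in the knockout. Of the 6 gene names fixed for this domain, 5 were found in the block and Zfp264 was not analysed here. Anchors over any part of Peg3 (6703892 to 6730462) were in 3 loops in the knockout, 1 after progesterone, 2 in vehicle replicate 2 and 1 in vehicle replicate 3. Those over Usp29 (6730559 to 6967220) were in 3, 2, 4 and 2 loops. The 3 knockout loops at Peg3 use a 5 kb anchor (6725001 to 6730000) that stops just short of its start, so by gene ends Peg3 had 0, 0, 1 and 1 loops and Usp29 0, 0, 1 and 0. One of them, of 365 kb, led to Zfp78 and was called at the same positions in vehicle replicate 2 and matched in vehicle replicate 3. The other 2 led to Zfp444 (555 kb) and Zfp667 (440 kb) and were in no wild-type list, a class that held 37.0% of knockout loops. Zim2, listed as a non-coding RNA gene, had 1 loop in each library, to the body of Usp29. Zim1, a maternally expressed zinc finger gene, and Zim3 had 0 in each.

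Counted from vehicle replicate 2, loops matched in all 4 lists were few. Matching used the rule that both anchors of a loop overlapped those of a loop in the other list once 10 kb had been added to each side of the first loop's anchors. Of 17 vehicle replicate 2 loops, 2 were matched in all lists (11.8%, exact 95% interval 1.46 to 36.4), against 39.0% of all vehicle replicate 2 loops. They were the 65 kb loop around Zfp787 and Zfp444 and a 40 kb loop from 6240001 to 6280001 at Epp13. Counted from the 11 loops of vehicle replicate 3, there were 4 such loops: these 2, a 125 kb loop from Zfp787-Zfp444 to Epp13 and Zfp667, and a 350 kb loop from Zfp78 to Peg3 (6350001 to 6700001), the last 2 with 25 kb anchors. A match in all lists was more frequent with a wider margin, at 6 of 17 with 25 kb added. The 39.0% holds for replicate 2 positions and the 10 kb margin, so neither of these other counts can be set against it. A 560 kb loop from just before Zfp78 to the body of Usp29 (6355001 to 6915001) was in both vehicle lists and matched in the knockout, and the progesterone list had one of 580 kb, to 6935001.

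Both vehicle lists shared 9 block loops, of which the knockout list lacked 5 (55.6%, 21.2 to 86.3), against 10.0% of all loops, 8.82% of chromosome 7 loops and 15.3% of loops of 1000 kb or longer. Of the 6 that were also in the progesterone list, it lacked 4, against 6.70% of all such loops. Of the 5 that the knockout lacked, 3 end at Clcn4-Vmn2r29, and they lead to Zfp787-Zfp444, Zfp78 and Zfp773. The block was chosen by the loop to Zfp787-Zfp444, and loops that share an anchor are not independent. The interval for the 5 of 9 is therefore no test of the block. The other 2 of the 5 are the 2475 kb loop of Zfp787-Zfp444 to Tmc4, Mboat7 and Tsen34, and a 130 kb loop of Zfp787 to Epp13 and Zfp667. The 130 kb loop had a knockout loop shifted by at most 20 kb. Its replicate 3 counterpart, of 125 kb with 25 kb anchors, was matched in the knockout and is given above as matched in all 4 lists. Whether this contact was lacking thus depended on the positions used. With 10 kb added to the anchors of both lists, the 5 became 4. Among loops with 25 kb anchors the knockout list lacked 4 of 4 in the block and 29.3% over the genome. Of these 4, 3 are the Clcn4-Vmn2r29 loops, so this share is no test either. Over the genome at this anchor size, replicate 3 lacked 61.8% of loops shared by replicate 2 and the knockout. Replicate 2 lacked 13.7% of those shared by replicate 3 and the knockout. Without the Clcn4-Vmn2r29 anchor, and with all anchor sizes, the knockout list lacked 2 of 6 (33.3%, 4.33 to 77.7). Between the vehicle lists by the same measure, replicate 3 lacked 6 of 10 block loops shared by replicate 2 and the knockout (60%, against 40.4% of all such loops), and replicate 2 lacked 1 of 6 shared by replicate 3 and the knockout (16.7%, against 7.95%). In the 1500 kb window below the block, the knockout list lacked 1 of 6 vehicle loops, and the window above held no loop in any list.

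Of the 22 knockout loops of the block, 10 were in neither vehicle list (45.5%, 24.4 to 67.8), against 40.6% of all knockout loops. In no wild-type list at all were 9 of the 22, against 37.0% of all knockout loops. Of these 10, 7 had an anchor at Zfp787 or Zfp444, and 5 were 1000 kb or longer. One of the 10, from Zfp667 to Zfp78 (75 kb), was also in the progesterone list. The remaining 2 of these 10 loops away from Zfp787 and Zfp444 joined Zfp667 with Peg3 and Ccdc106-U2af2 with Zfp78 (1300 kb).

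**Figure D4:**
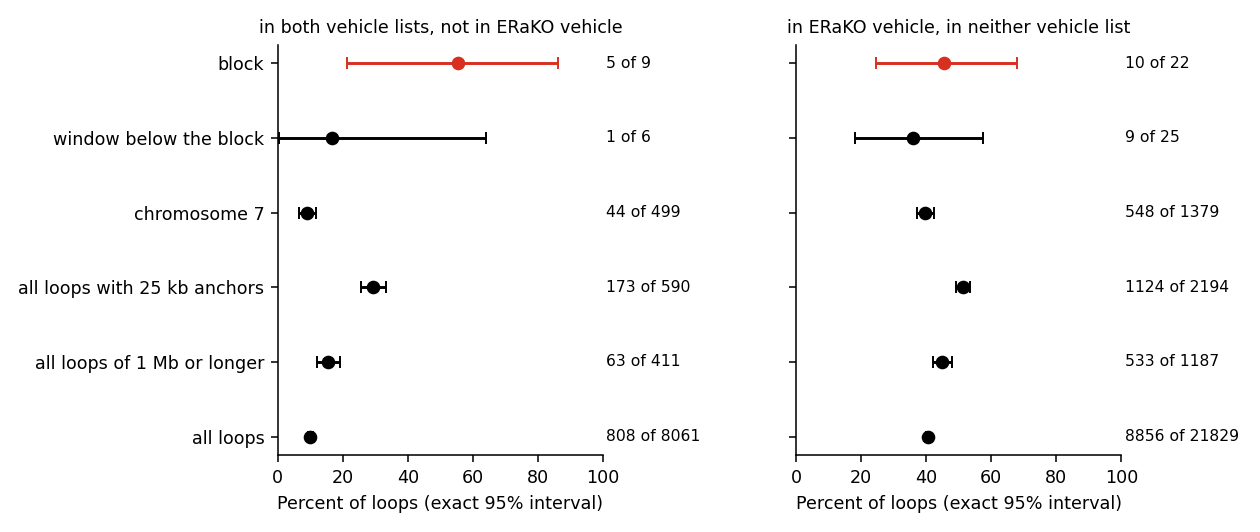
Percent of loops shared by the vehicle lists that the knockout lacked (left) and of knockout loops in neither vehicle list (right), with exact 95% intervals as bars, for the block (red), the window below it and larger sets of loops; counts are printed at the right. The block reads 55.6% against 10.0% over all loops on the left and 45.5% against 40.6% on the right. The block was chosen by a loop counted on the left, and loops that share an anchor are not independent, so its interval is no test.

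After progesterone, Clcn4-Vmn2r29 kept its loops to Zfp787-Zfp444 and Zfp78. The progesterone list lacked 3 of the 9 loops shared by the vehicle lists (33.3%, 7.49 to 70.1), against 15.1% of all loops. They were the Zfp773 loop of Clcn4-Vmn2r29, the 560 kb loop of Zfp78 and Usp29, and the 365 kb loop of Zfp78 and Peg3. The last 2 each had a progesterone loop with 1 anchor displaced by 20 kb, and with 25 kb added to the anchors only the Zfp773 loop was left. Between the vehicle lists by the same measure, replicate 3 lacked 4 of 10 block loops shared by replicate 2 and the progesterone list. That is 40%, against 28.2% of all such loops. Replicate 2 lacked 0 of 7 shared by replicate 3 and the progesterone list, against 5.99% of all such loops. Neither vehicle list held 5 of the 16 progesterone loops (31.3%, 11.0 to 58.7), against 14.8% of all progesterone loops. They were the Clcn4-Vmn2r29 loops to Ttyh1 and to Zfp667, an 825 kb loop from Zfp78 to Zfp418, and 2 more. These joined Zfp667 with Zfp78 (75 kb) and the segment just before Zfp78 with Usp29 (580 kb). The 580 kb loop is the displaced counterpart of the 560 kb vehicle loop. Away from the Clcn4-Vmn2r29 anchor, neither vehicle list held 3 of 12 progesterone loops (25%).

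Across the genome, a 25 kb bin with 3 or more loops in both vehicle lists was rarely without a knockout loop. Of 1148 such bins, 4 had none (0.348%), and 1 of the 4 is the Clcn4-Vmn2r29 bin. The other 3 lie at Acsl3 on chromosome 1, at Nfia on chromosome 4 and on chromosome 13, and had 5, 12 and 7 knockout loops within 50 kb. The Clcn4-Vmn2r29 bin had 0 within 50 kb, but no list, wild-type or knockout, had an anchor within 50 kb outside the bin itself. With no knockout loop in the bin, this count could only be 0. For comparison, 181 of 2846 bins with 3 or more loops in the knockout and vehicle replicate 2 had none in vehicle replicate 3 (6.36%), whose list is the shortest, and 1 of 1169 bins with 3 or more in the knockout and vehicle replicate 3 had none in vehicle replicate 2 (0.0855%). The bin counts were made after the block was known, and they describe these libraries.

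By gene, 227 protein-coding genes had 3 or more loops in both vehicle lists, and 3 of them had none in the knockout (1.32%): Clcn4, Vmn2r29 and Meis1, a homeobox gene with 0, 1, 4 and 5 loops. Clcn4 and Vmn2r29 share 1 anchor, so they are not separate cases. The block was chosen by a loop of that anchor, so this share is no test. Likeness to Clcn4 was measured outside the block as the sum over the 4 libraries of absolute differences in loop number. No gene came closer than 3, and 12 genes were at 3. The first 5 by symbol were Arglu1 (0, 2, 2 and 3 loops), H2ac12 and H2bc12 (1, 1, 4 and 3 each), Mbd5 (1, 2, 4 and 4) and Minar2 (1, 2, 3 and 3).

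Block loops were longer than those of the lists they came from. Their median length was 402.5 kb in the knockout, 462.5 kb after progesterone, 365 kb in vehicle replicate 2 and 350 kb in vehicle replicate 3, against 150, 190, 185 and 200 kb over the full lists. Loops of 1000 kb or longer made up 31.8%, 31.3%, 23.5% and 27.3% of block loops and 5.44%, 5.73%, 5.97% and 5.13% of all loops. The edges of the block cut through no crowded region: the nearest anchor below it ended at 5075000 in 3 lists and at 5125000 in vehicle replicate 2, and the first anchor inside began at 6120001 in the knockout and 6125001 in the wild-type lists.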

How the data were processed

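Each deposited list gives loop positions in 6 columns with no header: chromosome, start and end of both anchors, in bases on mm10. Juicer 1.5.6 is named, per the submitters' processing notes. The loop caller, its thresholds and the sequencing depth are not named by the labels or the files. Anchors are 5, 10 or 25 kb long, and starts were written from 1.

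Samples were grouped by the labels' titles. The block, its genes and the lists were chosen with earlier results of these data known. Genes came from RefSeq (GRCm38.p6, 21631 protein-coding genes on chromosomes with loops). A gene was at an anchor when its start or end lay inside. Loops in both vehicle lists are counted in replicate 2 positions. Named genes were the 4 block genes, the Peg3 domain, up to 25 block genes and 10 far genes with most loops, and 5 genes like Clcn4. With 1 progesterone and 1 knockout library no test was made. Intervals are exact (Clopper-Pearson, 95%) for counting error alone. Loops that share an anchor are not independent. The matching step was tested on simulated data. Python 3.11.15, pandas 2.3.3, scipy 1.17.1, Biopython 1.88 and matplotlib 3.10.9 were used.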

Additional observations from a re-analysis of the deposited data

How the results depend on the processing

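No paired analysis was possible because the knockout shares no replicate number with the vehicle libraries, the progesterone library shares 1, and no test was made. In the order knockout, progesterone, vehicle replicates 2 and 3, the 22, 16, 17 and 11 block loops became 11, 6, 8 and 3 with 5 kb anchors alone, 6, 5, 2 and 1 with 10 kb anchors and 5, 5, 7 and 7 with 25 kb anchors. With block edges moved in by 250 kb, the knockout and vehicle replicate 3 had 14 and 7. The 5 loops of both vehicle lists not called in the knockout became 0 with 10 kb anchors and 3 with edges moved in, and 5 to 7 without 1 vehicle replicate. The 10 knockout loops in neither vehicle list became 5 with 10 kb anchors, with edges moved in or with both anchors in the block, 4 with 25 kb anchors, 12 without vehicle replicate 3 and 16 without vehicle replicate 2. The 3 loops of both vehicle lists not called after progesterone became 1 with 25 kb added, with midpoints matched within 25 kb or with 10 kb added to the anchors of both lists, 0 with 10 kb anchors, 4 without vehicle replicate 2 and 7 without vehicle replicate 3. The 5 progesterone loops in neither vehicle list became 10 with 0 kb added, 2 with 25 kb anchors, 6 without vehicle replicate 3 and 9 without vehicle replicate 2. The 2 loops matched in all lists became 1 with 0 kb added or edges moved in, 6 with 25 kb added, midpoints or 10 kb added to both lists, and 0 with 10 kb or 25 kb anchors. Of 77 such counts, 41 stayed within 1.5 times. The margin on both lists, the 25 kb anchors alone in matching and the promoter windows were chosen after the data were seen. Contact counts were not used here, so loop strength and depth limit every absence of a call.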
